A study of Mus musculus with 3 samples.

Results

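Fixed sites on mouse chromosome 18 were single-base positions at which nearly every read of 3 related haploid embryonic stem cell (ESC) lines carried a base other than the one in the reference genome. They were taken from the deposited list of exonic variants by 4 criteria, which were 1 single-base alternate allele, 10 or more reads in each line, an alternate share of at least 80% of the reads in each line, and a gene name outside the olfactory (*Olfr*) and vomeronasal (*Vmn*) receptor families. The list held 484 positions on chromosome 18, of which 479 had 1 single-base alternate allele, 459 of these also had 10 or more reads in all lines, and 274 of those were fixed. None of the 479 lay in an *Olfr* or *Vmn* gene. The 274 sites lay in 45 genes and formed part of 3765 fixed sites over the whole genome. The sites were thus chosen by their read counts, that is by the depth and the alternate share in the 3 lines, and read shares at these positions are given as a description with no test.

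The study asked whether genome editing had left changes elsewhere in the genome of haploid ESCs made as a model of myotonic dystrophy type 1. Each line gave 1 genomic DNA library, so the data hold no replicate of a line. O48 was the unedited parental line at passage 40, an androgenetic haploid line whose single chromosome set is of paternal origin and which lacks the differentially methylated regions of *H19* and of the IG locus. ΔDSM-O48-1, at passage 60, carried CRISPR-Cas9 mutations of *Dmpk*, *Six5* and *Mbnl1*, and ΔDSMD-O48-2, at passage 70, carried a mutation of *Dmwd* besides these. All lines were labelled C57BL/6. The edited lines descended from O48 one through the other, ΔDSM-O48-1 by way of a line mutated in *Dmpk* alone, and each is 1 clone, so the 3 lines are not independent samples of a genotype. Where a sentence gives 3 values with no line named, they are in the order O48, ΔDSM-O48-1, ΔDSMD-O48-2.

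In a haploid genome each position carries a single allele, so a difference from the reference genome that is present in every cell gives alternate reads only. The reference genome of the mouse is that of C57BL/6J, and other inbred strains differ from it at many positions that lie together in long stretches of shared ancestry. Differences in coding sequence are called synonymous when the amino acid stays the same, and nonsynonymous when it changes.

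The fixed sites were not spread evenly. Split wherever neighbouring sites were over 1 Mb apart, they formed 9 blocks (mm10 coordinates), and 2 of these blocks held 263 of the 274 sites, or 96.0%, in 9.04% of the chromosome's exon sequence (327 of 3620 kb). The first dense block ran over 1.64 Mb from 19366151 to 21001422 and held 40 sites in 8 genes, from the predicted gene LOC100862097 to *Rnf138*, an E3 ubiquitin ligase gene. The second ran over 5.93 Mb from 66417369 to 72350678 and held 223 sites in 30 genes, from the predicted gene Gm20294 to *Dcc*, which encodes a netrin receptor of growing axons. Per 10 kb of exon, the density was 5.67 sites in the first and 8.7 in the second, against 0.0334 over the rest of the chromosome. The first and last fixed sites set the limits of each block, so these shares and densities are a description with no test. On chromosomes 3 and 9, the 2 blocks with most fixed sites held 745 of 784 and 252 of 260 sites. On chromosomes 11 and 2 they held 993 of 1210 and 293 of 424.

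**Figure D1:**
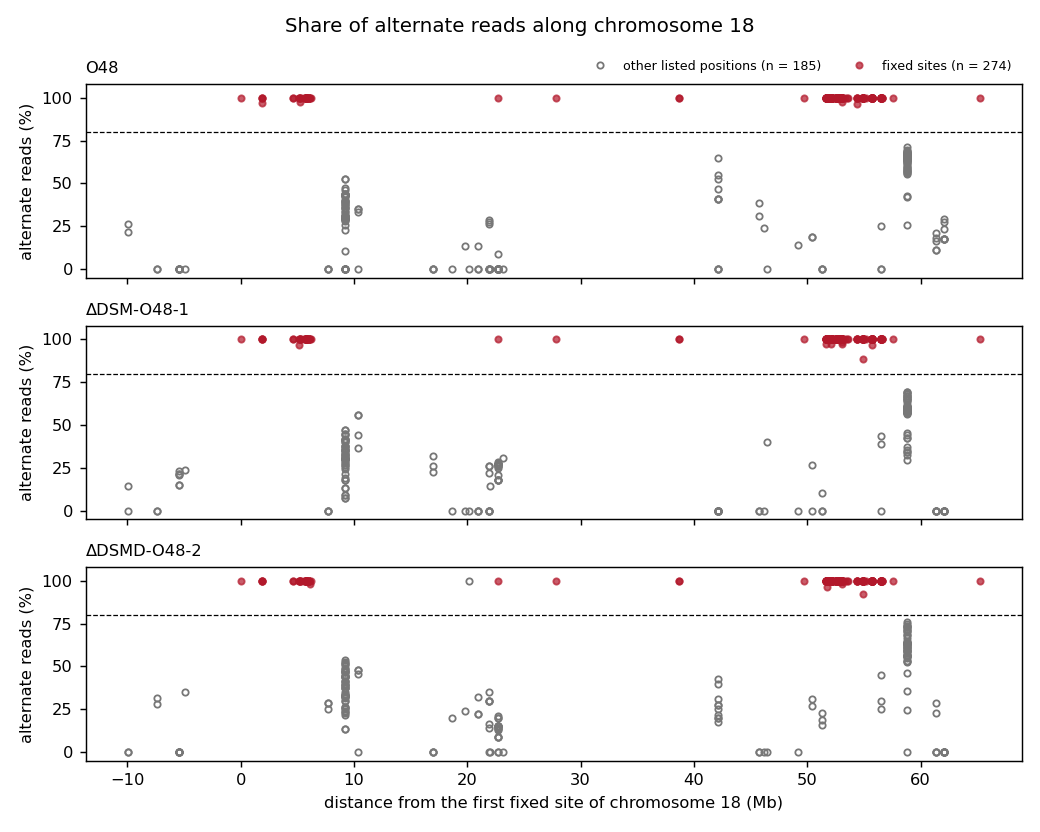
Share of alternate reads (%) in O48, ΔDSM-O48-1 and ΔDSMD-O48-2 at the 459 listed positions of chromosome 18 with 10 or more reads in all lines, by distance in Mb from the first fixed site. Red points are the 274 fixed sites, grey rings the other 185 positions, and the dashed line marks 80%. The fixed sites gather in 2 stretches of 40 and 223 sites, and the tall grey columns, at *Zfp191* and *Mex3c*, lie outside both.

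The other 7 blocks held 11 sites. *Cdh2*, the N-cadherin gene, had 4 synonymous sites within 675 bp between 16624191 and 16624865, at depths of 30 to 37 reads in O48, 18 to 30 in ΔDSM-O48-1 and, in ΔDSMD-O48-2, 20 to 29. *Prdm6*, which encodes a PR-domain transcriptional regulator, had 2 synonymous sites at 53464777 and 53464948. Single sites lay in the 5′ UTR of *Taf4b*, a germ cell subunit gene of the transcription factor TFIID (14783375), and in the 3′ UTR of *Fech*, which encodes the ferrochelatase of haem synthesis (64457132). The clustered protocadherin gene *Pcdhb14* had K305N at 37448757, with 31, 32 and 29 reads, and none of these carried the reference base. The last site, at 80012656, was listed as the stop codon R8* in the predicted gene LOC100861811. The RefSeq annotation of GRCm38.p6 holds no gene at this position. It was among the shallowest sites, with 10, 16 and 14 reads. Amino acid positions count from the first residue of the listed protein.

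Long stretches of exon sequence between the blocks held no fixed site. The largest gap ran for 16.4 Mb between *Rnf138* and *Pcdhb14* and contained 790 kb of exon and 140 protein-coding genes, with 97 listed positions that were not fixed. The chromosome before *Taf4b* held 464 kb of exon and 52 protein-coding genes, and the stretch after the last site 348 kb and 35 genes. By contrast, the gap of 2.74 Mb between *Cdh2* and the first dense block held only 18.1 kb of exon and 1 protein-coding gene, so little of it could have been listed. A gap of 1.96 Mb with 116 kb of exon and 14 genes separated *Fech* from the second dense block.

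Neighbouring sites lay a median of 286 bp apart over the chromosome, and 23 of 273 neighbouring pairs were 10 bp or less apart. In the first dense block, 589 kb separated LOC100862097 from the desmocollin gene *Dsc3*, and that interval held 0.78 kb of exon. A further interval of 228 kb, from *Dsg1c* to *Dsg3*, held 19.3 kb of exon and no fixed site. In the second block, the 3 longest intervals were 930 kb within *Dcc*, 859 kb after *Mc5r* and 724 kb between *Poli* and *Dcc*, with 2.54, 23.5 and 11.8 kb of exon. Of the 14 protein-coding genes that overlap the first dense block, 7 had a fixed site in an exon, and of the 30 in the second, 23 had one. A site in overlapping exons of several genes counts for each of them here. As the sites set the block limits, these counts are a description. The genes without a listed fixed site were *Dsc1*, *Dsg1a*, *Dsg1b*, *Dsg4*, *Ttr*, *B4galt6* and *Rnf125* in the first, and *Chmp1b*, *Impa2*, *Psmg2*, *Mc2r*, *Rab27b*, *Dynap* and *Mbd2* in the second.

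Reference reads were rare at the fixed sites in every line. O48 had 4 reference reads of 8555 (0.0468%, 95% Clopper-Pearson interval 0.0127 to 0.12%), ΔDSM-O48-1 had 8 of 8695 (0.092%, 0.0397 to 0.181%) and ΔDSMD-O48-2 had 5 of 8382 (0.0597%, 0.0194 to 0.139%). The criteria keep these shares low, so the lines are not compared by them. The intervals cover counting error only, since reads copied by PCR are not independent molecules. They also treat reads pooled over sites as separate draws. A single *Tcf4* site at 69685331 gave 2 of the 8 reference reads in ΔDSM-O48-1 and 2 of the 5 in ΔDSMD-O48-2. At 262 of the 274 sites no line had a reference read, and at 12 sites at least 1 line did. A site in *Cep192* at 67858098 was the only one with a reference read in every line, 1 of 40, 1 of 53 and 1 of 48 reads.

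The fixed sites had a median depth of 31 reads in O48 (10 to 51), 32 in ΔDSM-O48-1 (13 to 53) and 30 in ΔDSMD-O48-2 (14 to 54). The medians over all listed positions of the genome were close to these, at 33, 34 and 33 reads. The other listed positions of chromosome 18 were deeper, with medians of 44, 42 and 46 reads. Between the dense blocks, the first had medians of 36, 35.5 and 30 reads and the second had 31 in each line. The part of depth in the calls was not tested.

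**Figure D2:**
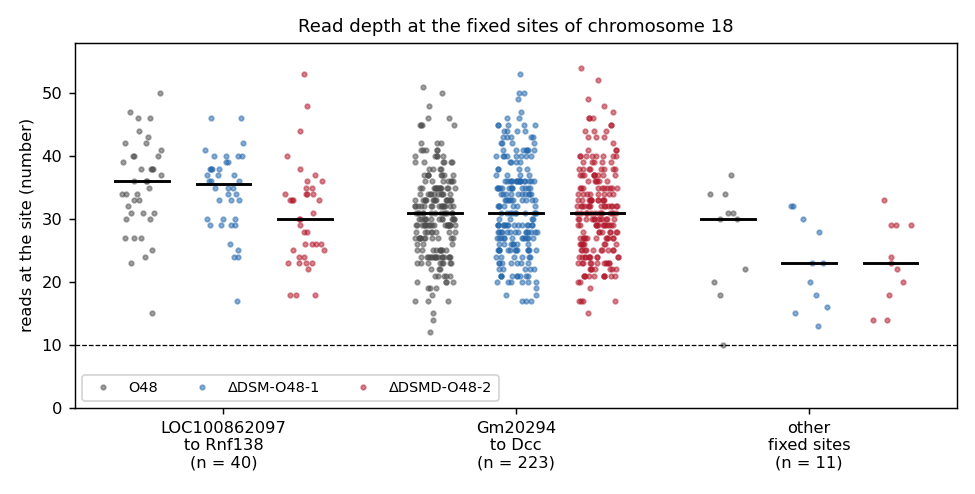
Reads at each fixed site (number) in O48, ΔDSM-O48-1 and ΔDSMD-O48-2, for the block from LOC100862097 to *Rnf138* (40 sites), the block from Gm20294 to *Dcc* (223 sites) and the other 11 sites. Each point is 1 site, bars are medians and the dashed line marks the minimum of 10 reads. All 3 lines cover the dense blocks with medians of 30 to 36 reads, and the lowest depth, 10 reads in O48, is among the other 11 sites.

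Of the 459 positions on chromosome 18 with enough reads, 274 were fixed, which is 59.7% (95% Clopper-Pearson interval 55.0 to 64.2%), where the same criteria took 38.8% of 9693 positions over all chromosomes and 37.8% of 9234 on the others. Nothing is read from this difference, because the criteria made the count. Per 10 kb of exon, chromosome 18 had 0.757 fixed sites and ranked the third of all chromosomes, after chromosome 11 with 1.44 and chromosome 3 with 1.29.

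The alternate shares left a wide gap around the threshold. The lowest shares among the fixed sites were those of a 3′ UTR site of *Tcf4* at 69685331, with alternate reads at 29 of 29 in O48, 15 of 17 in ΔDSM-O48-1 (88.2%) and 24 of 26 in ΔDSMD-O48-2 (92.3%). It was also the only fixed site whose genotype was not listed as homozygous in all lines, ΔDSM-O48-1 being listed as heterozygous. Just outside, ranked by the lowest share among the 3 lines, came a 3′ UTR position of *Mex3c* at 73592217, with 68.3, 66.7 and 64.6% in O48, ΔDSM-O48-1 and ΔDSMD-O48-2 at depths of 123, 90 and 113 reads. On depth, 5 positions in the 5′ UTR of *Tcf4* fell just short with 7, 7 and 8 reads at each, all of them alternate. They were 69345724, 69345726, 69345728, 69345730 and 69345732, evenly spaced and with the same counts. Whether they are separate differences was not tested. The listed change G117V of *Mbd2* also had alternate reads only, but 4, 12 and 5 of them.

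In all, 275 positions reached the 80% share in at least 1 line at 10 or more reads in every line. Of these, 274 reached it in all 3 (99.6%), a description only, since the criteria used this share and the edited lines descend from O48. The exception was S554T of *Hspa9*, the gene of the mitochondrial chaperone mortalin, at 34939410. It had 0 alternate reads of 22 in O48 and 0 of 28 in ΔDSM-O48-1, but 22 of 22 in ΔDSMD-O48-2. This position lay in the 16.4 Mb gap and was no member of a block.

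The 185 positions that were not fixed lay almost wholly outside the dense blocks, which held 3 of them. The zinc finger gene *Zfp191* had 50, *Mex3c*, which encodes an RNA-binding ubiquitin ligase, had 47 and the protocadherin gene *Pcdhb13* had 17. None of these 3 genes had a fixed site.

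By gene, the sites were concentrated in a few. An unnamed locus listed as id274691 had 59 of the 274, *Dsg3* had 22, *Dcc* 18, *Afg3l2* 16, *Cep192* 15, *Spire1* and 4930503L19Rik 13 each, and *Tcf4* and the unnamed locus id274695 12 each. *Mc4r* came next with 8. At the other end, 18 genes had 1 site each. The number of sites depends on exon length, and per kb of exon the order differed, with 12.1 in id274691, 8.7 in id274695, 5.32 in *Dsg3*, 3.61 in *Afg3l2*, 3.44 in the β-tubulin gene *Tubb6*, 3.37 in 4930503L19Rik and 2.87 in *Mc4r*.

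**Figure D3:**
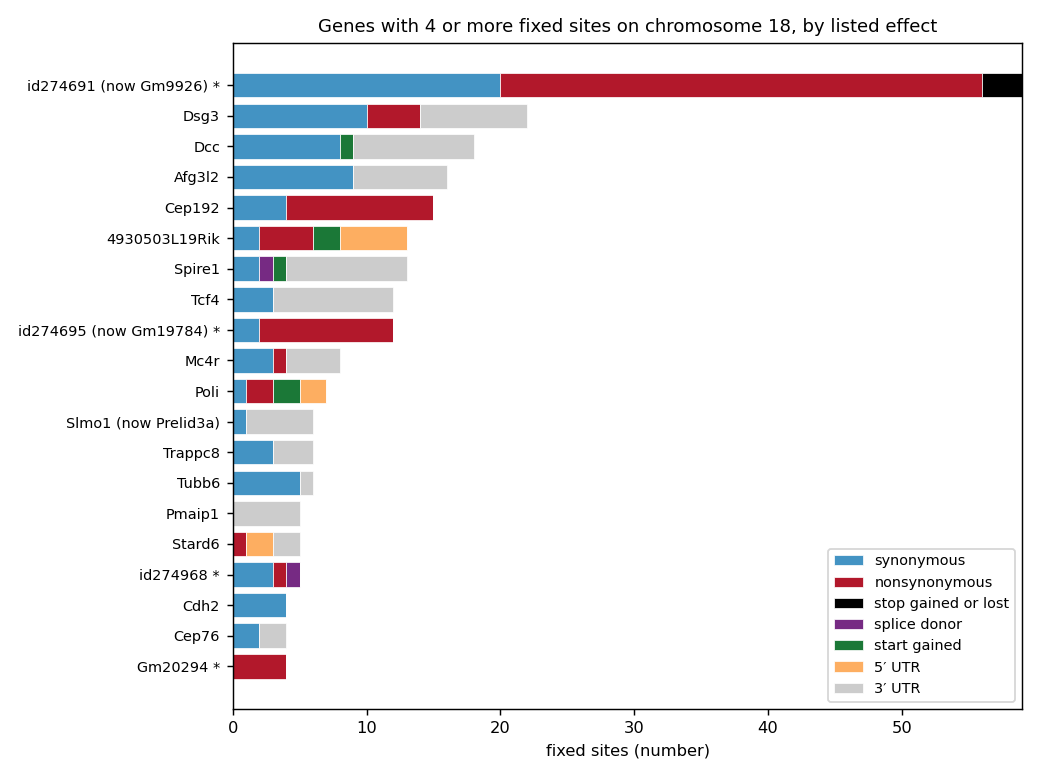
Number of fixed sites in each gene with 4 or more, coloured by the effect listed by the authors. An asterisk marks loci that the RefSeq annotation of GRCm38.p6 holds as non-coding or does not hold. The locus id274691 stands first with 59 sites, and *Cep192* has the most nonsynonymous sites (11) among genes that are protein-coding in RefSeq.

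The effects listed by the authors were synonymous at 93 sites (33.9%), nonsynonymous at 80 (29.2%) and 3′ UTR at 74 (27.0%). A further 15 sites were listed in 5′ UTRs, 6 as a gained start codon, 2 as a stop gained, 2 as a stop lost and 2 as a splice donor. Among the 177 sites listed with a coding effect, 84 were nonsynonymous or changed a stop, or 47.5% (95% Clopper-Pearson interval 39.9 to 55.1%). Over the fixed sites of the other chromosomes the share was 50.9% (48.7 to 53.1%). Between the dense blocks, it was 6 of 23 in the first, or 26.1% (10.2 to 48.4%), and 76 of 146 in the second, or 52.1% (43.6 to 60.4%), where id274691 gave 39 of the 76.

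Much of this listing came from loci that current gene models do not hold as coding. When the effects were worked out again from the RefSeq annotation of GRCm38.p6, a comparison added after the listed effects had been seen, 86 of the 177 sites with a listed coding effect were no longer in coding sequence. The counts became 68 synonymous and 25 nonsynonymous sites, with 76 in non-coding exons and 11 outside any gene, while the 74 sites in 3′ UTRs remained 74. The nonsynonymous share of coding sites was then 25 of 93, or 26.9% (18.2 to 37.1%). Of these 93, 68 lay at the third position of a codon, 15 at the first and 10 at the second.

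**Figure D4:**
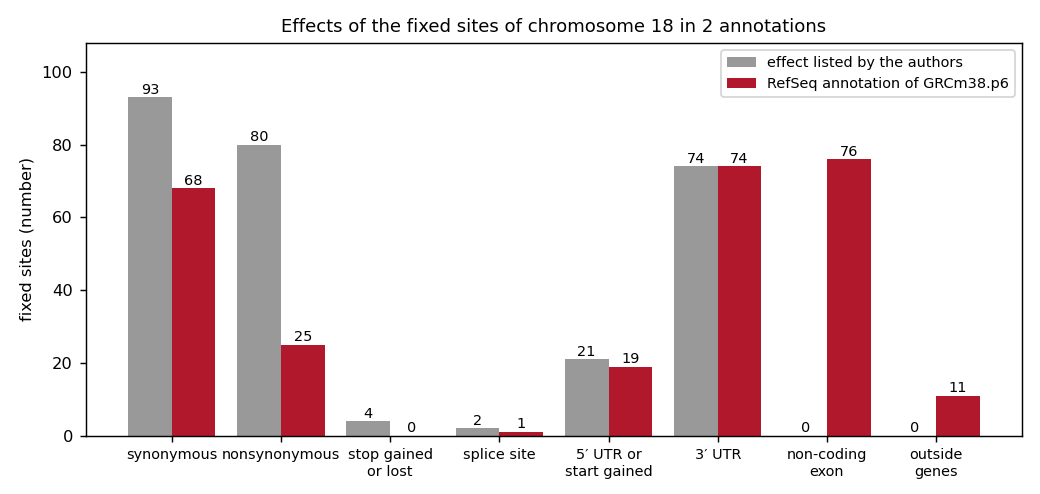
Number of fixed sites by effect, as listed by the authors (grey) and in the RefSeq annotation of GRCm38.p6 (red). Sites listed as nonsynonymous fall from 80 to 25, while 76 sites are in non-coding exons and 11 lie outside genes in RefSeq.

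The locus id274691 held 59 of the 86 sites that were no longer in coding sequence. It corresponds to Gm9926, a long non-coding RNA gene at 66504178 to 66511737 on the plus strand with 4.89 kb of exon. In the listing it was read as 1 protein, with 20 synonymous changes, 36 nonsynonymous changes, the stop gained W253* and the stops lost *121Y and *127R. The stop gained W253* had 23, 33 and 29 reads. The nonsynonymous share of id274691 was 39 of 59, or 66.1% (52.6 to 77.9%). Without it, the share over chromosome 18 was 45 of 118, or 38.1% (29.4 to 47.5%), likewise chosen after the values were seen.

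Other loci moved in the same way. The 12 sites of id274695, 10 of them listed as nonsynonymous, lie in the long non-coding RNA gene Gm19784. Gm20294, listed with the changes M12K, G46E, E60D and G98C, and id274968, listed with F175S and a splice donor, had all their sites outside RefSeq genes. LOC100862097, listed with R368W and K104Q, corresponds to the pseudogene Gm38432. In all, 73 fixed sites lay in 4 long non-coding RNA genes, 3 in 2 pseudogenes, 187 in 35 protein-coding genes and 11 outside genes.

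The 25 amino acid changes present in current protein-coding genes fell in 8 genes, which were singled out after their values had been seen. All but 2 of these sites had no reference read in any line. *Cep192*, which encodes a scaffold protein of the centrosome that builds the pericentriolar material and recruits mitotic kinases, had 11 changes against 4 synonymous ones. In order along the protein these were P292R, C351R, V648A, T833I, P1010T, M1327V, V1530A, I1752V, S1884R, T2041A and I2138T. By BLOSUM62, a matrix that scores how often a residue replaces another in related proteins, C351R was the least common exchange, at -3, and I1752V among the most common, at 3. C351R, at 67818806, had 31, 41 and 37 reads, all alternate.

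Changes in adhesion genes were fewer. *Dsg3*, which encodes the desmosomal cadherin desmoglein 3 of stratified epithelia, carried S11P, Q22H, P29Q and E269D beside 10 synonymous sites and 8 in the 3′ UTR. The substitution S11P, at 20510405, had 34, 33 and 40 reads, and P29Q, at 20520484, had 31, 36 and 24. No read at any of the 22 *Dsg3* sites carried the reference base. Together, the 9 desmoglein and desmocollin genes of the first dense block had 31 of its 40 sites, in 5 genes, with 4 nonsynonymous and 14 synonymous. No other position was listed in these genes with 10 or more reads in every line. The *Dsg1* genes are related copies, so reads may have been assigned among them wrongly and their counts are uncertain. Read assignment was not tested.

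Both melanocortin receptor genes with a site carried an amino acid change. *Mc4r*, the receptor gene of hypothalamic appetite control, had G25S at 66859968 with 35, 36 and 34 reads, beside 3 synonymous sites and 4 in the 3′ UTR. *Mc5r*, whose receptor acts in exocrine glands, had a single site, listed as F121Y and placed at F74Y in the RefSeq protein, with 39, 21 and 42 reads. *Mc2r*, the corticotropin receptor gene of the same block, had no listed fixed site.

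*Poli*, which encodes the translesion DNA polymerase iota, had L24S at 70530217 with 29, 25 and 22 reads. Another change, at 70509321 with 24, 36 and 26 reads, was listed as G540R. RefSeq transcripts hold it as G540R or as G603R. Both scored -2 by BLOSUM62. The neighbouring 4930503L19Rik, a protein-coding gene of unassigned function, had I94T, A37S, R30S and Q13R, and *Stard6*, a gene of the lipid-transfer START family, had L26V.

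Several genes with many sites had no amino acid change. *Afg3l2*, which encodes a subunit of the mitochondrial m-AAA protease, had 9 synonymous sites and 7 in its 3′ UTR, with median depths of 37.5, 41.5 and 37.5 reads. *Dcc* had 8 synonymous sites, 9 in its 3′ UTR and 1 listed as a gained start codon. *Tcf4*, a basic helix-loop-helix transcription factor gene, had 3 synonymous sites and 9 in its 3′ UTR. *Tubb6* had 5 synonymous sites and 1 in its 3′ UTR, and the 5 sites of *Pmaip1*, the gene of the apoptosis regulator NOXA, were all in the 3′ UTR.

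Splice donors and start codons were changed at few sites. *Spire1*, which encodes an actin nucleator, had a substitution A67549122G (reference base, mm10 position and alternate base, on the plus strand) that turned the GT of a splice donor into GC in 1 of the 13 RefSeq transcripts of the gene, with 35, 45 and 26 reads. The 6 sites listed as a gained start codon lay in 4930503L19Rik (2), *Poli* (2), *Spire1* (1) and *Dcc* (1). None of the 6 made an ATG, and all 6 made CTG or TTG. The *Spire1* site of this kind, at 67545711, was synonymous in the RefSeq annotation.

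Of the 511 protein-coding genes of the chromosome, 35 had a fixed site (6.85%) when each site was assigned to 1 gene. Counts in single gene families are given beside that share with no test. Of 59 protocadherin genes, 1 had a fixed site. No site fell in the 10 *Spink* protease inhibitor genes, in the 1 *Lama* laminin gene, in the 11 *Zfp* zinc finger genes or in the 13 *Slc* solute carrier genes. No gene of these 4 families or of the protocadherins lay in the dense blocks. Predicted or unnamed genes held 101 of the 274 sites, in 12 loci, of which 63 were listed as nonsynonymous or a stop change and 29 as synonymous.

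The base changes of the fixed sites were mostly transitions, which are exchanges between A and G or between C and T. They made up 202 of 274 sites, or 73.7% (95% Clopper-Pearson interval 68.1 to 78.8%), against 71.0% (69.4 to 72.5%) at the fixed sites of the other chromosomes. Read from the pyrimidine of each base pair, T-to-C changes were the most frequent at 41.2%, followed by C-to-T at 32.5%. Of the 202 transitions, 40 ended a CpG dinucleotide (19.8%, 14.5 to 26.0%) and 41 made one (20.3%). On the other chromosomes the shares were 17.3% and 19.2%. Transitions made up 28 of 40 sites in the first dense block (53.5 to 83.4%) and 166 of 223 in the second (74.4%). The share of sites in 3′ UTRs, 27.0% (21.8 to 32.7%), lay below the 35.3% (33.7 to 36.9%) of the other chromosomes. Without id274691, left out after the values were seen, the share on chromosome 18 was 34.4% (28.1 to 41.2%). No locus of this kind was left out on the other chromosomes, so this value and theirs are not like measures. Sites within a block are close neighbours and the intervals treat them as separate, so no test was made between chromosomes.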

How the data were processed

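Genomic DNA of 1 library each of O48, ΔDSM-O48-1 and ΔDSMD-O48-2 was sequenced. The submitters' processing notes name CASAVA 1.8.2, BWA 0.7.12, SAMtools, Picard, GATK and mm10, and how variants were filtered is not given in the sources used here. The deposited list of exonic variants gives, for each line, the count of all reads and of those with each allele, a genotype and a quality score that the authors took from the variant caller.

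Positions listed more than once were reduced to 1. Blocks were split at gaps over 1 Mb, with limits at the first and last fixed site. Effects were taken as listed, with the effect of highest impact per site, and worked out again from the RefSeq annotation of GRCm38.p6, whose base equalled the listed reference base at all 274 sites. Intervals are Clopper-Pearson intervals at 95%. Scripts used Python 3.11.15, pandas 2.3.3, scipy 1.17.1, Biopython 1.88 and pysam 0.24.0 and were tested on simulated data. With 1 library per line, no test between lines was made. Alternatives changed the share, depth, genotype, gap and annotation criteria.

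The members and gene lists were chosen with earlier results of these data known. Genes were named if among the 30 listed changes with the lowest BLOSUM62 score, the 10 genes with most sites, the ends of a block, next to a threshold, or fixed in only some lines. Other named genes, among them *Mc5r*, *Stard6*, *Tubb6* and *Pmaip1*, were chosen after their values were seen. The gene and position of 1 site outside the dense blocks are not reported here.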

Additional observations from a re-analysis of the deposited data

Results flagged for a closer look

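*Hspa9* S554T, at 34939410, was the only position on chromosome 18 with 10 or more reads in all lines that reached the 80% alternate share in 1 line and not in the others. It drew attention as a signal outside the fixed sites, with 22 alternate reads of 22 in ΔDSMD-O48-2, 0 of 22 in O48 and 0 of 28 in ΔDSM-O48-1. With 1 library per line the difference has no replicate check, and it was not tested.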

How the results depend on the processing

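No paired analysis was possible because each line gave 1 library and no result came from a test. The number of fixed sites ranged from 215 to 279 over 12 alternatives, against 274, and the share of transitions from 72.4 to 75.7%. The number of blocks, 9, ranged from 6 to 10 under 13 alternatives and rose to 14 when blocks were split at gaps over 500 kb. The added splits all fell inside the 2 dense blocks, so their 263 sites then lay in more than 2 blocks. The nonsynonymous share of coding sites, 47.5%, ranged from 46.4 to 48.2% under 12 alternatives. It fell to 26.9% with effects from the RefSeq annotation of GRCm38.p6 and to 38.1% without id274691, both chosen after seeing the data. Depth of 10 to 54 reads per site limits what share of reference reads can be seen at a single site.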
